A study of Mus musculus with 20 samples.

Results

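Atf4 was followed through 6 combinations of amino acid supply and O-GlcNAc state in mouse embryonic fibroblasts, by sequencing the mRNA fragments that ribosomes protect. The gene was chosen by name, through its Ensembl transcript ENSMUST00000109605, with earlier results of these data known. The transcript is 1 of 15354 listed in at least 1 of the 20 libraries. The deposited tables carry no gene names, so the link between identifier and gene is Ensembl's. In the RefSeq annotation of GRCm38.p6 the Atf4 gene (gene ID 11911) spans chr15:80255184-80257545, a stretch of 2362 bases with 2 RefSeq transcripts. The values themselves gave the length over which the authors scaled the transcript as 1050 nt, which is 349 codons and a stop codon, so the levels below are scaled to the coding length. Whether reads outside the coding sequence were counted was not tested.

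ATF4 is the bZIP transcription factor through which the integrated stress response switches on genes of amino acid synthesis, amino acid transport and redox defence. Its mRNA carries upstream open reading frames: ribosomes that translate the first and resume scanning reach the ATF4 start codon only when initiation at the next is delayed, as happens when the kinase GCN2 senses uncharged tRNA and phosphorylates eIF2α. The initiation factor eIF3, which brings the small ribosomal subunit to mRNA, can stay on the ribosome into early elongation and takes part in this reinitiation. O-GlcNAc is a single sugar that the enzyme OGT adds to serines and threonines of intracellular proteins and that O-GlcNAcase removes; the title of the series names its addition to the eIF3 subunit eIF3a.

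All cells were C57BL/6J fibroblasts. Starved cells spent 2 h in DMEM with a serum that the labels abbreviate as DFBS and do not spell out, for amino acid starvation, and fed cells were kept in DMEM with fetal bovine serum. Ogt knockout cells received 0.5 µM 4-OHT for 24 h and then fresh medium for 24 h; Thiamet-G cells received 0.1 µM of that O-GlcNAcase inhibitor for 16 h; control cells received neither. The labels give 4-OHT to the knockout cells only, so loss of Ogt and that treatment cannot be told apart, and the recombinase, its driver and the number of cell lines are not given. Ribo-seq, which maps ribosomes engaged on mRNA, had 2 libraries in each of its 6 groups. eIF3-80S-seq, which maps fragments of ribosomes that still carry eIF3, had 2 starved and 2 fed control libraries and a single library for each of the 4 remaining groups. Whether replicate libraries are separate cultures is not stated, so every p-value below is set by a library-to-library spread that may be technical only.

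The libraries differed in ways that touch Atf4. Totals recovered from the RPKM steps ran over 844403 to 5846130 reads in Ribo-seq and 52148 to 359282 in eIF3-80S-seq. In each Ribo-seq group 1 file listed transcripts from about 5 reads up, with at most 0.00981% of its recovered values under 5, and the other from 1 read up, with 6.88% to 15.6% under 5. All 8 eIF3-80S-seq files started at 5 reads. Over 8373 transcripts listed in all 12 Ribo-seq files, the 2 libraries of a group lay 0.652 to 0.815 apart (median absolute log2 difference). Libraries of different groups that were both listed from 5 reads lay 0.218 to 0.870 apart (median 0.566). Those both listed from 1 read lay 0.660 to 0.916 apart (median 0.781). That was about as far as libraries of different groups with unlike floors, at 0.629 to 1.06 (median 0.799). The starved Thiamet-G libraries carry title numbers opposite to the numbers of their files, so below they are paired by the listing floor and named by title. Ogt, Oga and fibroblast markers were not analysed here, since no identifier in the files could be paired with a name, and neither the knockout nor the cell type was checked.

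Atf4 was read in 20 of 20 files. Pooled over the 3 backgrounds, mean Atf4 levels were higher in starved than in fed libraries. The mean over Ribo-seq was 798 ± 195 RPKM in the starved libraries and 390 ± 206 RPKM in the fed libraries (SD, n = 6 each). Over eIF3-80S-seq it was 590 ± 229 RPKM in the starved libraries and 230 ± 36.3 RPKM in the fed libraries (SD, n = 4 each). Set among all transcripts, neither difference passed in the main limma fits (adjusted p of 0.397 in Ribo-seq and 0.288 in eIF3-80S-seq). The Ribo-seq knockout pair listed from 1 read had a starved over fed ratio of 0.969. RPKM are reads scaled by coding length and by the library's total. No difference between knockout, Thiamet-G and control cells was detected, and the 95% intervals of those Ribo-seq comparisons reached beyond 2-fold in both directions. No RNA-seq library was used here, so a change in Atf4 mRNA and a change in ribosomes per mRNA cannot be told apart. The levels are relative to each library's total, so the absolute number of Atf4 footprints per cell was not measured.

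In Ribo-seq of Ogt knockout cells, Atf4 had 718 and 744 RPKM in starved replicates 1 and 2, against 195 and 768 RPKM in fed replicates 1 and 2. The starved libraries were alike and the fed ones were not: fed replicate 2 was the highest of all fed libraries and lay above 4 of the 6 starved libraries of the whole assay. That library was listed from 1 read and held 1089 Atf4 reads, which put the 95% counting interval of its level at 723 to 815 RPKM.

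In Thiamet-G cells, Atf4 had 614 and 1094 RPKM in starved replicates 1 and 2, against 276 and 358 RPKM in fed replicates 1 and 2. Both starved libraries were above both fed ones. Starved replicate 2 had the highest deposited Atf4 level of the 20 libraries; after rescaling it had 930 RPKM, and starved control replicate 1 had 942.

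In control cells, Atf4 had 982 and 638 RPKM in starved replicates 1 and 2, against 283 and 460 RPKM in fed replicates 1 and 2. Here too the starved and fed libraries did not overlap. The share of all transcripts with both starved libraries above both fed ones was not counted in Thiamet-G or control cells. The separation within either background is therefore no result about Atf4. The deepest Atf4 measurement of the series, 6025 reads, came from starved replicate 1, and the shallowest in Ribo-seq, 560 reads, from starved Thiamet-G replicate 1.

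**Figure D1:**
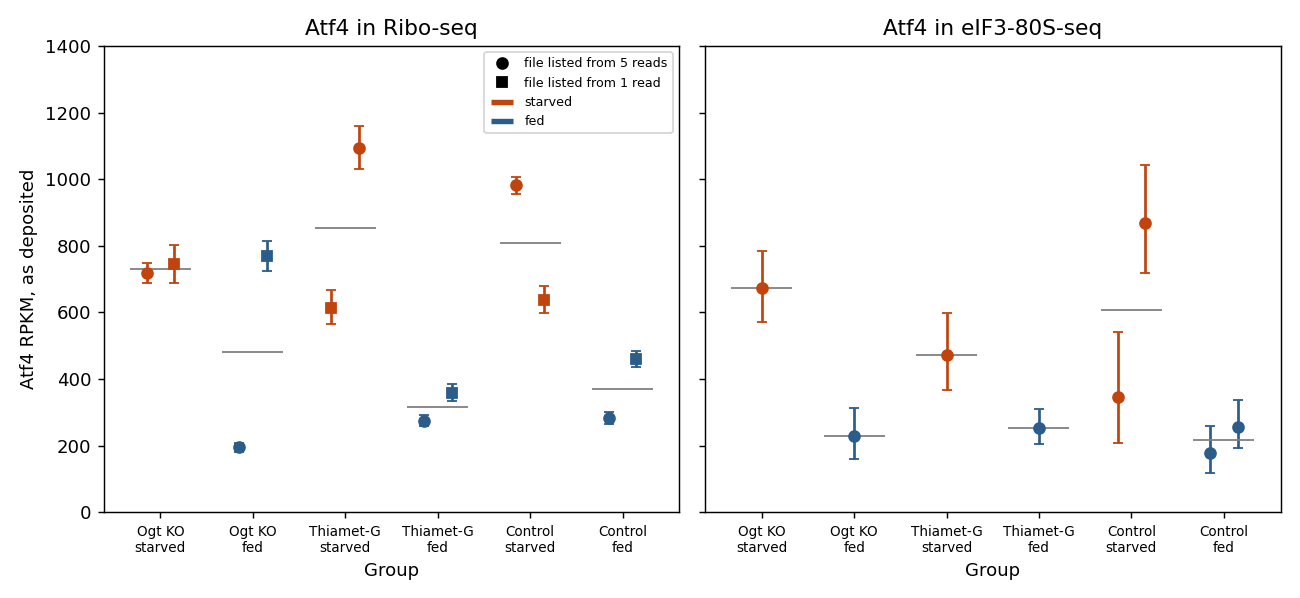
Atf4 level in RPKM as deposited (vertical axis) in each library of Ribo-seq (left panel) and eIF3-80S-seq (right panel), by group; bars on points are 95% Poisson counting intervals, grey lines are group means, circles are files listed from 5 reads and squares files listed from 1 read. The fed knockout library at 768 RPKM stands among the starved libraries, while all 4 starved eIF3-80S-seq libraries lie above the 4 fed ones.

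Ordered by mean Ribo-seq level, Atf4 was lowest in fed Thiamet-G cells (317 ± 58.5 RPKM), followed by fed control cells (371 ± 125 RPKM), fed knockout cells (482 ± 405 RPKM), starved knockout cells (731 ± 18.8 RPKM), starved control cells (810 ± 243 RPKM) and starved Thiamet-G cells (854 ± 340 RPKM; SD, n = 2 each). The 3 starved groups stood above the 3 fed groups, and every neighbouring pair in that order had overlapping ranges. The order among the 3 fed groups and among the 3 starved groups therefore does not exceed the spread between libraries.

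The size of the Atf4 difference went with the listing floor of the files. Among libraries listed from 5 reads, the starved over fed ratio of deposited RPKM was 3.68 in knockout cells (95% counting interval 3.40 to 3.98), 3.97 in Thiamet-G cells (3.64 to 4.33) and 3.47 in control cells (3.24 to 3.71). Among libraries listed from 1 read it was 0.969 in knockout cells (0.878 to 1.07), 1.71 in Thiamet-G cells (1.53 to 1.91) and 1.39 in control cells (1.28 to 1.50). PCR copies are not independent molecules, so these intervals cover counting error only. Reads of Atf4 far exceeded both floors, so the listing itself does not remove any of them. On the rescaled log2 scale, the ratio averaged 1.74 ± 0.11 in the 3 pairs from 5 reads (SD, n = 3 pairs). It averaged 0.39 ± 0.40 in the 3 pairs from 1 read (SD, n = 3 pairs). The difference was 1.35 (two-sided exact permutation p = 0.1, the smallest 3 against 3 pairs can give). The split was chosen after the data had been seen, so this p supports no call. The share of all transcripts with a like difference was not counted.

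**Figure D2:**
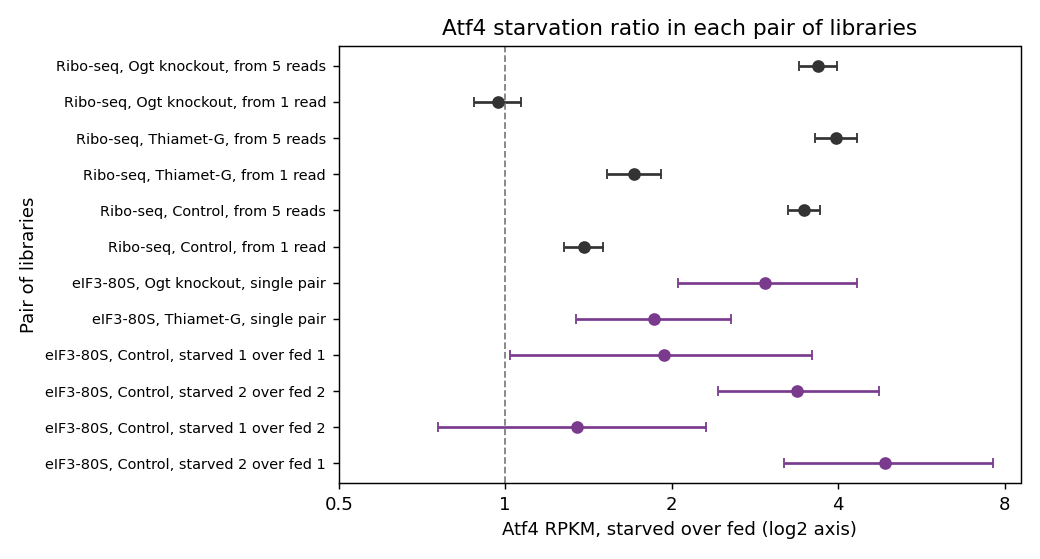
Starved over fed ratio of Atf4 RPKM (horizontal axis, log2 scale) in each pair of libraries, with 95% counting intervals; the dashed line marks a ratio of 1. The 3 Ribo-seq pairs listed from 5 reads sit between 3.47 and 3.97, the 3 listed from 1 read between 0.969 and 1.71, and the eIF3-80S-seq pairs between 1.35 and 4.85, where the control libraries are drawn in both possible matches.

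Averaged over the 3 backgrounds, starved minus fed Atf4 in Ribo-seq was 1.06 on the scale of log2(RPKM + 1) after rescaling (SE 0.361, 95% interval 0.28 to 1.84), a 2.08-fold difference. The same difference of 1.06 gave p = 0.0108 when starved and fed labels were permuted over the 6 and 6 libraries for Atf4 alone (two-sided exact permutation; 0.0216 after Benjamini-Hochberg adjustment over the 2 assays tested). That permutation ignores the listing floor, by which the libraries were paired here. Its p also does not account for the choice of Atf4 with earlier results of these data known. Flipping signs within the 6 pairs gave an exact p of 0.0625, which does not pass, while permuting within each kind of file gave 0.02. Set among all transcripts, Atf4 did not pass: limma with Benjamini-Hochberg adjustment over 10936 transcripts gave an adjusted p of 0.397 (unadjusted 0.0121), with 0% of transcripts called higher and 19 called lower. At an unadjusted p under 0.05, 418 transcripts, 3.82% of those tested, were higher in starved cells and Atf4 was one of them; limma-voom on recovered reads called 3 transcripts higher and 50 lower, with an adjusted p of 0.287 for Atf4. The Atf4 difference ranked 448 from the top, so 4.09% of transcripts had a larger one, and the median over all transcripts was -0.01.

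Blocking on the listing floor of the files did not by itself bring Atf4 under the threshold. In limma on log2(RPKM + 1) with the floor as a block, the difference stayed at 1.06 with an adjusted p of 0.168. Without the block, limma-voom on recovered reads gave an adjusted p of 0.287. With the floor as a block and recovered reads in limma-voom, Atf4 was 1.10 higher in starved cells on the log2 scale with an adjusted p of 0.0339, and 1.02% of 9883 transcripts were called higher. A split by listing floor was chosen after the data had been seen, so its p-values support no call. In that split, limma on the 6 libraries listed from 5 reads gave Atf4 1.69 higher with an adjusted p of 0.0174. There 2.4% of 10269 transcripts were called higher. On the 6 libraries listed from 1 read limma gave 0.37 with an adjusted p of 0.868, and 0% of 11107 transcripts were called higher at an adjusted p under 0.05. In the libraries listed from 5 reads all 3 starved levels of Atf4 were above all 3 fed levels, as held for 13.2% of the 9202 transcripts listed in each of them.

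Single libraries moved the averaged Atf4 difference as well. Without fed knockout replicate 2 the limma difference was 1.40 (adjusted p = 0.122), and without fed knockout replicate 1 it was 0.72 (adjusted p = 0.442). In control and Thiamet-G cells alone the 4 starved and 4 fed libraries did not overlap, as held for 5.72% of the 8612 transcripts listed in each of those libraries. The averaged difference there was 1.13, with a limma adjusted p of 0.352. The two-sided exact permutation p was 0.0286, the smallest 4 against 4 can give. The knockout libraries were left out after the data had been seen. With them went the only fed library that overlapped the starved ones, so that permutation p follows from the choice and supports no call.

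**Figure D3:**
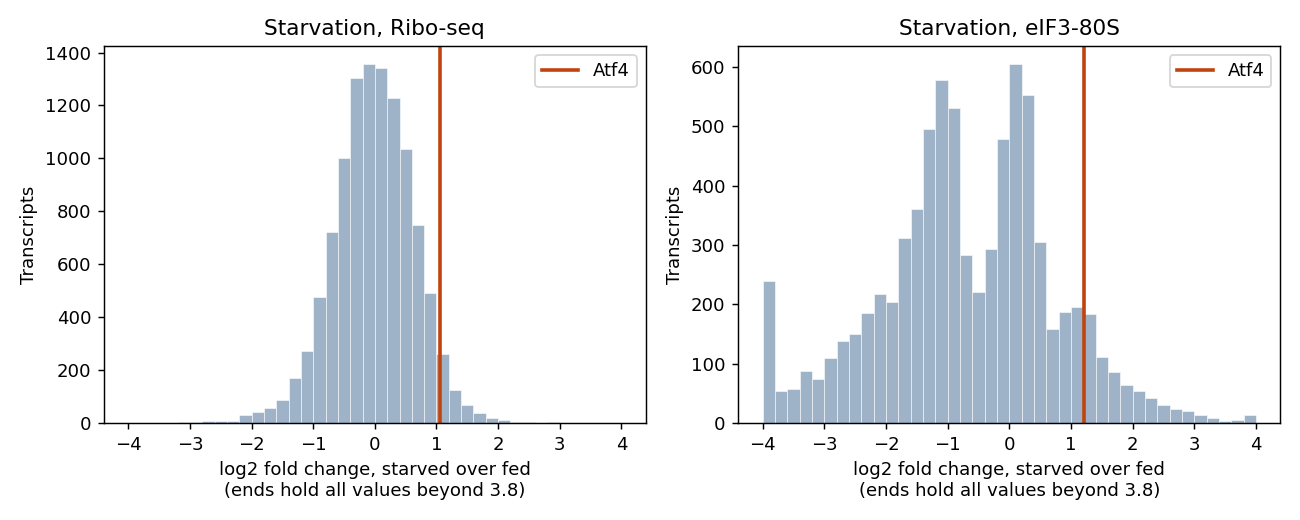
Number of transcripts (vertical axis) by log2 fold change of starved over fed cells (horizontal axis, 0.2 per bar) in Ribo-seq averaged over backgrounds (left) and in eIF3-80S-seq with background as a covariate (right); the red line is Atf4, at 1.06 and 1.21. The eIF3-80S-seq values fall in separate peaks because transcripts a file does not list enter at 0, while Atf4 was listed in all files.

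Background by background, the Atf4 difference pointed the same way, and in the main limma fit each interval included 0. limma gave starved minus fed values of 0.91 in knockout cells (95% interval -0.45 to 2.26, adjusted p = 1), 1.25 in Thiamet-G cells (-0.11 to 2.60, adjusted p = 0.835) and 1.02 in control cells (-0.34 to 2.37, adjusted p = 0.803). None of the 10936 transcripts was called in any of the 3. The share higher at an unadjusted p under 0.05 was 0.229% in knockout cells, 2.44% in Thiamet-G cells and 2.63% in control cells, and Atf4 was in none of the 3. The unadjusted p of Atf4 in these limma fits was 0.171, 0.0677 and 0.128, in the same order. In Thiamet-G cells, other fits without a block left out 0. limma-voom gave 0.0019 to 2.53 (unadjusted p = 0.0497, adjusted 0.998). limma's unadjusted p was 0.045 with RPKM as deposited and 0.0334 after quantile normalization (adjusted 0.826 and 0.919). With the listing floor as a block, the Thiamet-G interval was 0.04 to 2.46 (limma, unadjusted p = 0.0441, adjusted 0.503). limma-voom with that block gave intervals of 0.23 to 2.28 in Thiamet-G cells and 0.07 to 2.03 in control cells, with adjusted p of 0.639 and 0.281. In knockout cells the sign of the Atf4 difference rested on fed replicate 1: without it the value was -0.12, and without fed replicate 2 it was 1.93.

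Whether starvation acted on Atf4 differently by O-GlcNAc state was read from the interaction terms, which had wide intervals. Starved minus fed in knockout cells less that in control cells was -0.11 (SE 0.884, 95% interval -2.03 to 1.81), and in Thiamet-G cells less that in control cells it was 0.23 (SE 0.884, 95% interval -1.68 to 2.15); limma gave an adjusted p of 1 for both and called 0% of transcripts. A several-fold larger or smaller Atf4 response in either background falls inside those intervals. With single libraries left out, the knockout interaction ran over -1.16 to 0.92.

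Levels between backgrounds were compared in the same way, within the fed and within the starved state. In fed cells, knockout minus control was -0.05 (95% interval -1.40 to 1.31), opposite in sign to the difference of the plain means: on the log scale the unequal knockout libraries averaged 361 rescaled RPKM and the control libraries 374, while the plain means were 458 and 382. It was 0.10 with RPKM as deposited. In the same cells Thiamet-G minus control was -0.21 (-1.57 to 1.14). In starved cells, knockout minus control was -0.16 (-1.51 to 1.20) and Thiamet-G minus control was 0.02 (-1.34 to 1.37). In those cells knockout minus Thiamet-G was -0.18 (-1.53 to 1.18). That pair is labelled as opposite manipulations of the O-GlcNAc cycle, and O-GlcNAc levels were not checked here. limma gave adjusted p values of 1 for Atf4 in the first 4 of these and 0.999 in the last. In each of the 5 comparisons 0% of transcripts were called, against 401, 51, 147, 316 and 528 of 10936 that had an unadjusted p under 0.05; limma-voom called none either.

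The knockout comparison of Atf4 turned over between the 2 kinds of file. Among libraries listed from 5 reads, the rescaled knockout over control ratio was 0.578 in fed cells and 0.672 in starved cells. Among libraries listed from 1 read it was 1.61 in fed cells and 1.19 in starved cells. Thiamet-G over control stayed nearer 1 in these single pairs: 0.919 and 0.808 in fed cells and 0.988 and 1.04 in starved cells, from 5 reads and from 1 read in turn. Fed knockout replicate 2 and fed knockout replicate 1 differ from each other in Atf4 more than any 2 groups differ on average.

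In eIF3-80S-seq, Atf4 rested on far fewer reads, 19 to 162 a library. In Ogt knockout cells it had 672 RPKM in the starved library (162 reads) and 228 RPKM in the fed library (37 reads), a ratio of 2.95 (95% counting interval 2.05 to 4.34). In Thiamet-G cells it had 473 RPKM in the starved library (68 reads) and 254 RPKM in the fed library (96 reads), a ratio of 1.86 (1.34 to 2.56). In both backgrounds the starved library was higher by more than counting error, with 1 library a group and so no replicate check.

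In control cells of this assay, Atf4 had 347 and 869 RPKM in starved replicates 1 and 2 (19 and 118 reads), against 179 and 257 RPKM in fed replicates 1 and 2 (28 and 54 reads). Both starved libraries were above both fed ones, a separation whose share over all transcripts was not counted here either. Starved replicate 1, the shallowest library of the series, had a 95% counting interval of 209 to 542 RPKM. That interval reached below the level of fed replicate 2. Starved over fed was 1.94 for the replicates numbered 1 (95% counting interval 1.02 to 3.59) and 3.38 for those numbered 2 (2.43 to 4.75). The labels do not pair these libraries, and the other match gave 1.35 for starved replicate 1 over fed replicate 2 (0.755 to 2.31) and 4.85 for starved replicate 2 over fed replicate 1 (3.19 to 7.62). limma on the control libraries gave a difference of 1.16 with an interval of -0.59 to 2.90 and an adjusted p of 0.747, with 0.58 without starved replicate 2 and 1.73 without starved replicate 1; it called 0% of 7734 transcripts, and 0.931% were higher at an unadjusted p under 0.05. limma-voom also called none there, with an interval for Atf4 of 0.37 to 2.15 (adjusted p = 0.322). Among the 1679 transcripts listed in all 8 files, limma's interval was 0.12 to 2.19 (adjusted p = 0.323). There 2 transcripts were called higher and 3 lower.

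The fed eIF3-80S-seq levels of Atf4 lay close together across backgrounds, in the order control (218 ± 55.4 RPKM; SD, n = 2), knockout (228 RPKM) and Thiamet-G (254 RPKM). The starved levels ran in the order Thiamet-G (473 RPKM), control (608 ± 369 RPKM; SD, n = 2) and knockout (672 RPKM). The single knockout and Thiamet-G values fell inside the range of the 2 control libraries in each state, so no difference between backgrounds exceeded the spread between control libraries.

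With background as a covariate over all 8 eIF3-80S-seq libraries, starved minus fed Atf4 was 1.21 (SE 0.298, 95% interval 0.49 to 1.92), a 2.31-fold difference. All 4 starved libraries lay above all 4 fed ones, and the two-sided exact permutation gave p = 0.0286 (also 0.0286 after adjustment over the 2 assays), the smallest that 4 against 4 libraries can give. Starved and fed did not overlap in that direction for 8.1% of the 1679 transcripts listed in all 8 files. The permutation p does not account for the choice of Atf4 with earlier results of these data known. limma over 7734 transcripts gave Atf4 an adjusted p of 0.288 (unadjusted 0.00548); it called 0% higher and 22 transcripts lower, and 1.31% were higher at an unadjusted p under 0.05.

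The choice of transcripts decided that adjusted p. In this fit the median difference over all transcripts was -0.75, since a transcript that a shallow file does not list enters at 0. Among the 1679 transcripts listed in all 8 files the Atf4 difference was the same 1.21, limma's adjusted p was 0.0187 and 4.53% were called higher. limma-voom on recovered reads gave 1.26 with an adjusted p of 0.00353, and 2.79% of 3299 transcripts were called higher.

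The place of Atf4 among other transcripts moved in the same direction as its level. Among the 1675 transcripts listed in all 20 files, Atf4 in Ribo-seq ranked between 179 and 304 in starved libraries (median 262.5, n = 6) and between 273 and 733 in fed libraries (median 490, n = 6), counted from the highest RPKM. In eIF3-80S-seq it ranked between 174 and 394 in starved libraries (median 237.5, n = 4) and between 571 and 646 in fed libraries (median 596, n = 4). The ranks of starved and fed libraries overlapped in Ribo-seq through fed knockout replicate 2, at 273, and did not overlap in eIF3-80S-seq. Within single Ribo-seq files, 2.01% to 3.49% of listed transcripts had a higher RPKM than Atf4 in starved libraries and 2.88% to 10.5% in fed libraries. Within single eIF3-80S-seq files, which list different numbers of transcripts, those shares were 3.72% to 21.2% in starved libraries and 10.5% to 21.8% in fed libraries, and overlapped.

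Set against Ribo-seq on 1 common scale, Atf4 in eIF3-80S-seq was lower in every group, a direction that rested on the scaling: after quantile normalization the averaged difference was 0.014. The ratio of eIF3-80S-seq to Ribo-seq means was 0.863 in starved and 0.479 in fed knockout cells, 0.637 in starved and 0.630 in fed Thiamet-G cells, and 0.719 in starved and 0.491 in fed control cells. Averaged over the 6 groups, eIF3-80S-seq minus Ribo-seq was -0.62 (SE 0.322, 95% interval -1.33 to 0.08). limma gave an adjusted p of 0.116, in a comparison where 52.6% of 10542 transcripts were called lower and the median over all was -1.53. Over the 1675 transcripts listed in all 20 files that median was -0.03, 20.2% were called lower and limma's adjusted p for Atf4 was 0.0954. The assays also differed in fragment size and depth, and their part in the Atf4 difference was not tested.

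The starvation difference of Atf4 in eIF3-80S-seq less that in Ribo-seq was 0.32 (SE 0.644, 95% interval -1.09 to 1.72). limma gave an adjusted p of 0.973, and 0.0379% of transcripts were called higher, 4 in all, against 61 called lower. The starved ratio of the 2 assays was above the fed ratio in knockout and control cells and nearly equal to it in Thiamet-G cells, with differences that the test did not separate from the spread between libraries.

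**Figure D4:**
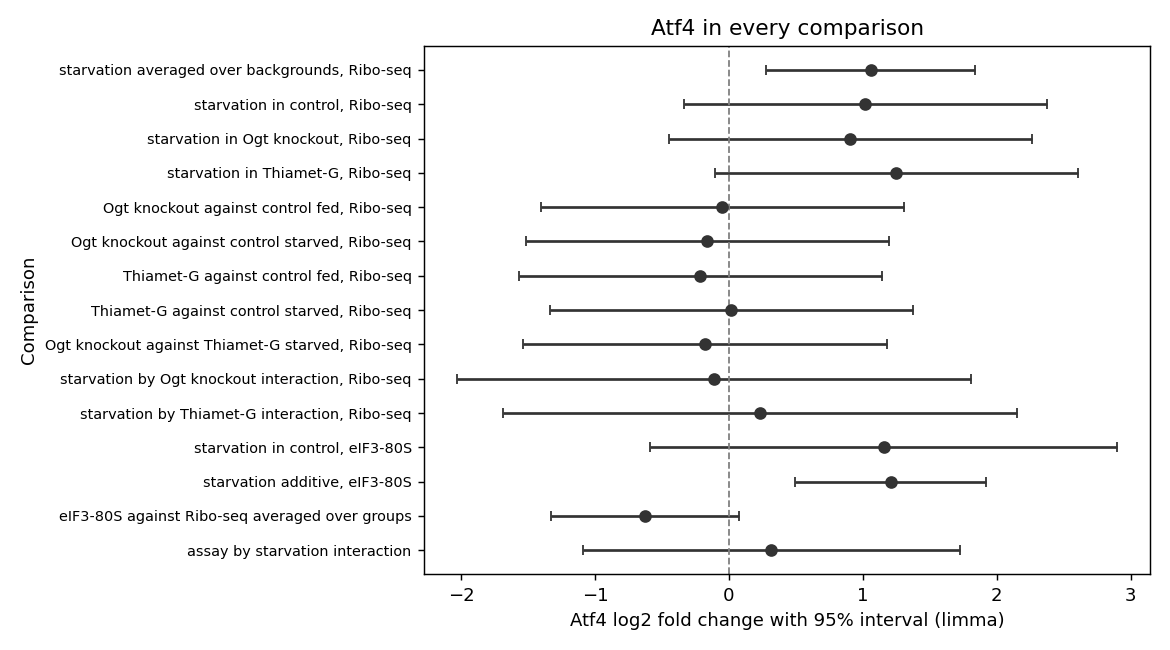
Atf4 log2 fold change (horizontal axis) with its 95% interval in each of the 15 limma comparisons; the dashed line marks 0. The starvation comparisons lie at 0.91 to 1.25, those between backgrounds within -0.21 to 0.02, and intervals that leave out 0 belong to starvation averaged over backgrounds in Ribo-seq and to starvation over all 8 eIF3-80S-seq libraries.

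The transcripts whose level went most closely with Atf4 were sought over the 12 Ribo-seq libraries among 8359 other transcripts that were listed in all of them and averaged at least 1 RPKM. The highest r over the 12 libraries belonged to ENSMUST00000167273 (coding length 1974 nt), with a Pearson r of 0.931, and 0.927 after removal of the mean of each kind of file. It had 46.2 ± 28.9 rescaled RPKM in starved libraries and 16.2 ± 12.4 in fed libraries (SD, n = 6 each). The next, ENSMUST00000021903 (coding length 480 nt), had an r of 0.924, or 0.920 within kinds of file, with 814 ± 108 rescaled RPKM in starved libraries and 435 ± 248 in fed libraries (SD, n = 6 each). These 2 alone had an r above 0.9 over the 12 libraries as they stand. The order changed within kinds of file: the transcript next after them, with an r of 0.892, had 0.947 there, above both. It had an r of 0.873 over the 8 eIF3-80S-seq libraries. In each of these transcripts, as in Atf4, the highest fed level was that of fed knockout replicate 2. The levels there were 32.5, 923 and 1258 rescaled RPKM, in order of r over the 12 libraries. How far these r rest on that library was not tested. These correlations describe 12 libraries that share depth, listing floor and treatment, and neither identifier could be paired with a gene name.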

How the data were processed

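The 20 libraries, one file each, hold RPKM per Ensembl transcript as the authors deposited them. Per the submitters' processing notes, cutadapt, STAR and GRCm38 were used, with counter, annotation and filters not given in the sources used here. RPKM steps of the deposited files gave back whole reads, for at least 85.5% of the transcripts listed in each file, and coding lengths, and Atf4's counting intervals are 95% Poisson intervals on those reads. The recovery was tested on simulated data, where it found 8 of 8 library totals. For the tests, RPKM were divided by median-ratio size factors (0.929 to 1.18 in Ribo-seq, 0.835 to 1.14 in eIF3-80S-seq), those averaging under 1 RPKM were left out, unlisted transcripts counted as 0, and log2(RPKM + 1) was fitted with limma 3.58.1 (lmFit and eBayes with a trend, R 4.3.3) with Benjamini-Hochberg adjustment over all transcripts and a threshold of 0.05. A fold on that scale slightly understates low values. Exact permutation tests used Atf4's own values. The gene and the rule for like transcripts (the 5 highest r, of which 2 are printed for want of names) were chosen with earlier results of these data known. Libraries with the same listing floor deviated together in 15 of 15 pairs of groups (r of 0.19 to 0.45). Unlisted transcripts counted as 0 in this r, so the floor itself can make such libraries correlate. This r therefore cannot show that they were prepared together. Integrated stress response genes were not analysed here.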

Additional observations from a re-analysis of the deposited data

How the results depend on the processing

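Over 17 results, 349 alternatives were run (pseudocount 0.1, no filter, listed transcripts only, other scalings, no trend, limma-voom, blocks, permutation within strata and leaving out each library): 317 kept direction and side of the threshold, 20 changed sign, 6 passed the threshold only in the alternative and 6 of the permutation results lost it. The starvation difference of Atf4 stayed above 0 under every alternative in control cells, Thiamet-G cells, the Ribo-seq average and both eIF3-80S-seq results. It passed in the Ribo-seq average under limma-voom with the listing floor as a block (1.10). In eIF3-80S-seq it passed under listed transcripts only (1.21) and limma-voom (1.26). Files listed from 5 reads alone also gave a value under the threshold (1.69), but that split was chosen after seeing the data and supports no call. Leaving out single libraries gave 0.72 to 1.40 for the Ribo-seq average -0.12 to 1.93 in knockout cells and 0.58 to 1.73 in eIF3-80S-seq of control cells.

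Knockout minus control in fed cells was 0.10 with RPKM as deposited and 0.14 after quantile normalization. Thiamet-G minus control in starved cells was -0.0037 under limma-voom and -0.017 with the listing floor as a block as well. eIF3-80S-seq minus Ribo-seq was 0.014 after quantile normalization. The cause was not tested in any of these. With single libraries left out, knockout minus control ran over -1.09 to 0.99 in fed cells and -0.47 to 0.16 in starved cells, and Thiamet-G minus control over -0.50 to 0.074 in fed cells and -0.29 to 0.34 in starved cells. Knockout minus Thiamet-G in starved cells ran over -0.45 to 0.093, the knockout interaction over -1.16 to 0.92 and the Thiamet-G interaction over -0.070 to 0.55. The assay interaction ran over -0.041 to 0.67 and eIF3-80S-seq minus Ribo-seq over -0.80 to -0.45. The latter passed without fed knockout replicate 1 (-0.80) and without starved control eIF3-80S-seq replicate 2 (-0.72). The share of transcripts called in those fits is not given here, so they support no call about Atf4. In the main fit 52.6% of 10542 transcripts were called lower, with a median over all of -1.53.

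The Ribo-seq permutation value of 1.06 gave an exact p of 0.0278 within backgrounds, 0.02 within listing floors, and 0.0625 when signs were flipped within the 6 pairs (smallest possible 0.0312). The eIF3-80S-seq value of 1.21 gave 0.0833 within backgrounds, the smallest that permutation can give; without single libraries it ran over 1.04 to 1.42, with exact p of 0.0286 to 0.0571. The replicate block by title number left the Ribo-seq average at 1.06 (limma adjusted p = 0.314) and the listing floor as a block gave 1.06 (adjusted p = 0.168). By title number, 10 of 15 pairs of groups correlated above 0.1, against 15 of 15 by listing floor. Title number and floor part only in the starved Thiamet-G libraries, and the floor itself can make libraries correlate. This r therefore cannot show which of them pairs the libraries. The blocks changed no call of Atf4 in limma on log2(RPKM + 1). Alternatives split by listing floor or leaving out the knockout were chosen after seeing the data. Depth limits Atf4 most in eIF3-80S-seq, with 19 reads in the shallowest library.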
